A study of Arabidopsis thaliana with 72 samples.

Results

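The comparison described here sets shoots of NG064 against shoots of NG087, 2 recombinant inbred lines of Arabidopsis thaliana from one cross, Nok-3 x Ga-0. It uses 12 of the 72 arrays of the series, chosen by line and organ from the sample labels: NG064 at 0.4 mM nitrate (low), NG064 at 9 mM nitrate (sufficient), NG087 at low nitrate and NG087 at sufficient nitrate, with 3 biological replicates each. All plants were 21 days old and had grown on vertical agar plates with 1% sucrose, and each replicate was pooled, by the design text, over 30 plants harvested on 3 plates. With 6 seeds sown per dish, as the growth protocol states, that number is not reached, so the pool size is uncertain. The low medium also replaced potassium nitrate with potassium chloride, and each line is a single inbred genotype. Each array measured 22746 Affymetrix probe sets, groups of short probes that read one transcript or a few related ones. Values are log2 expression, so a difference of 1 is a 2-fold difference.

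Recombinant inbred lines are made by crossing accessions and selfing the progeny until each line is fixed for one parent's allele at nearly every position. Sister lines of one cross share the parental allele over part of the genome and carry different parental alleles over the rest. A difference in a transcript between sisters can come from an allele at the gene itself, which acts in cis, or from an allele elsewhere that acts on it in trans. Nitrate is the main nitrogen source of these plants, and its supply changes the expression of a large part of the leaf's genes.

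Shoot markers followed the organ labels, and not all root markers were low in shoots. The 6 measured shoot markers, which include RCA (Rubisco activase) and LHCB4.2 (a light-harvesting antenna protein), lay between 11.4 and 14.5 in all 12 arrays. None was called between the lines, and in roots their line means were 4.31 to 9.04. Of the 5 measured root markers none was called either. EXPA7, a root hair expansin, stayed between 2.69 and 3.49 in the 12 arrays, while PYK10, a beta-glucosidase of the root endoplasmic reticulum body, lay between 10.6 and 12.1. The root markers NAI2 (7.89 to 9.35) and JAL22 (8.48 to 10.1) were also high in shoots. In roots the line means of NAI2 and JAL22 were 11.2 to 11.8, and those of PYK10 were 13.6 and 13.9. The root marker AT5G17820 spread over 2.11 to 6.52 in shoots, with an NG064 minus NG087 difference of 1.42 and an adjusted p of 0.273. The lowest value in the table, 2.11, acts as a floor, and 3999 probe sets (17.6%) were within 0.1 of it in all 12 arrays. Replicates of a group correlated at 0.982 to 0.994. In bulk shoots, fewer cells of a type and less RNA per cell cannot be told apart.

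A pair of libraries stood apart from their groups. Each array was set against the means of both lines at its own nitrate supply, over probe sets that differed 2-fold or more in a fit made without that array. At 58 probe sets that were higher in NG087, NG064 low replicate 2 lay a median of 0.59 above the other NG064 low arrays, where the gap between the lines had a median of 1.65. At 52 probe sets higher in NG064 it lay 0.29 below the other NG064 low arrays. On a linear scale these positions were 23.1% and 24.3% of the way from NG064 to NG087. The root array of the same line, supply and replicate number shifted the same way, by 10.1% and 31.5%, and what the shared number stands for is not stated in the labels. NG087 sufficient replicate 1 was the other: it lay 18.8% of the way to NG064 at 70 probe sets higher in NG064 and 34.5% at 75 probe sets higher in NG087. Its root partner, NG087 root sufficient replicate 1, lay 8.53% and 24.9% of the way. The other 10 root arrays ranged from -1.25% to 2.95% and from -6.64% to 20.9% on these measures. The 10 other shoot arrays ranged from -8.90% to 3.18% at probe sets higher in the other line, and from -8.37% to 18.5% at probe sets higher in their own. Counts are given below with and without these libraries. They were found by how near they lay to the other line, so leaving them out tends to widen the difference between the lines.

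The plainest case was AT5G34920, annotated as a pseudogene. It read 5.70 in NG064 low replicate 2, where the other 5 NG064 shoot arrays read 2.11 to 2.80 and the 6 NG087 arrays 7.69 to 8.18. In roots the NG064 low replicate 2 array read 4.00, against 2.11 in all 5 other NG064 root arrays. AT1G13650 gave no such reading in NG087 sufficient replicate 1, which stayed at 2.11. What set these libraries apart was not tested.

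Few transcripts differed between the sister lines. Only 2 called probe sets lay within 0.1 of the floor of 2.11 in all 6 arrays of one line. Others stayed low throughout one line without meeting that bound, such as AT5G56380 at 2.11 to 2.27 in NG064. NG064 had 199 probe sets higher (0.875%) and 235 lower (1.03%) than NG087, or 434 in all at an adjusted p below 0.05, which is 1.91% of those tested (limma, nitrate supply as a covariate). Of these, 126 differed 2-fold or more (0.554%), 65 higher in NG064 and 61 higher in NG087. The median size of a called difference was 0.65, and over all probe sets the median difference was 0. Without NG064 low replicate 2 the count was 350 (1.54%), without NG087 sufficient replicate 1 it was 932 (4.1%), and without both it was 619 (2.72%), with 152 probe sets at 2-fold or more. At an unadjusted p below 0.05, 3411 probe sets passed. When only the 13433 probe sets above 5 in 3 or more shoot arrays were tested, 621 were called (4.62%).

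A firm set of 164 probe sets (37.8% of the 434) was called in the same direction with all 12 arrays and again each time any 1 of the 12 was left out. It held 81 probe sets higher in NG064 and 83 higher in NG087, and 159 of the 164 were also called without both libraries that stood apart. It covers 88 single genes, 44 of them 2-fold or more different.

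**Figure D1:**
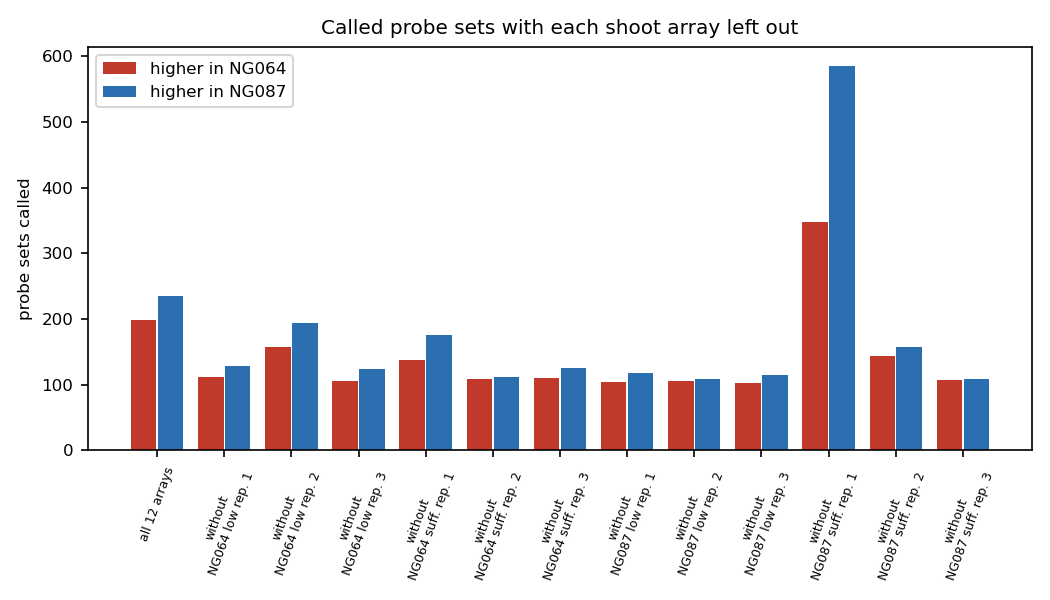
Number of probe sets called (vertical axis) between NG064 and NG087 shoots with all 12 arrays and with each array left out, as bars for those higher in NG064 (red) and higher in NG087 (blue). The total lay between 214 and 350 for 11 of the arrays left out and reached 932 without NG087 sufficient replicate 1.

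The pair was set beside the other 14 pairs that the 6 lines allow, each pair in a fit of its own. The Fei-0 replicate 3 shoot arrays were left out there because an earlier analysis of these data had set them apart, which was not retested. NG064 and NG087 gave the fewest calls of the 15 pairs: 434, against 491 to 2623 with a median of 1787 in the others. At 2-fold or more the sisters had 126, against 338 to 814. Without either or both of the libraries that stood apart the sisters had 122 to 174 at 2-fold or more, still fewer than any other pair, but with 619 or 932 calls of any size they no longer had fewer than the pair with 491, El-0 and Fei-0, which rested on 10 arrays.

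Counted once per gene, 225 of 13286 genes were called (1.69%), 112 higher in NG064 (0.843%) and 113 higher in NG087 (0.851%). Most genes at the top of the list are known in the reference table by locus number alone, and no role is given for those. The genes described next are the 15 largest called differences in each direction among probe sets of 1 gene whose 6 arrays per line did not overlap, which was so for 225 of all probe sets (0.989%), 106 with NG064 higher and 119 with NG087 higher. Pseudogenes made up 2 of the 225 called genes (0.889%), against 6.95% of all measured genes, and both of them were among the largest differences. Probe sets whose probes match several transcripts were 8.53% of the called ones and 4.66% of all, so a near-identical copy can contribute to their value.

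Higher in NG064, the largest named difference was at AT1G13650 on chromosome 1. At low nitrate its NG064 arrays read 6.25, 7.15 and 6.51, against 2.11 in all 3 NG087 arrays. At sufficient nitrate they read 9.22, 9.89 and 8.47, against 2.11, 3.56 and 2.22. Every NG064 array was above every NG087 array, and most NG087 arrays were at the floor. The difference was 5.54 ± 0.45 (SE; limma adjusted p = 0.000508).

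AT1G11280, also on chromosome 1, was high in all NG064 arrays and low in all NG087 arrays at both supplies. It had 8.54, 8.35 and 8.75 in NG064 at low nitrate, against 3.84, 3.61 and 2.59 in NG087. At sufficient nitrate it had 8.88, 8.99 and 9.13 in NG064, against 3.55, 3.84 and 3.55 in NG087. The difference was 5.28 ± 0.19 (adjusted p = 2.94e-06). Its next measured neighbour, AT1G11270, went the same way, with a range of 5.08 to 6.19 in NG064 and 2.81 to 4.45 in NG087 and a difference of 1.67 ± 0.24. In shoots of the other 4 lines AT1G11280 averaged 7.70 to 8.87, so among the 6 lines NG087 was the low one.

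AT3G61160 on chromosome 3 ranged over 7.04 to 9.09 in NG064 and 4.51 to 6.32 in NG087 (difference 2.92 ± 0.27, adjusted p = 0.000914). 2A6, an enzyme of the 2-oxoglutarate-dependent oxygenase family, ranged over 6.50 to 7.91 in NG064 and 4.07 to 5.24 in NG087 (2.47 ± 0.18, adjusted p = 0.00027). For both genes the ranges were well apart. AT3G57470 differed by 2.51 ± 0.45 (adjusted p = 0.0262), but 1 NG064 array at sufficient nitrate read 2.79 beside an NG087 range of 2.26 to 2.61, and without both libraries its adjusted p was 0.059. It lost its call in 9 of the 12 fits with 1 array left out. AT1G17860 differed by 2.27 ± 0.41 (adjusted p = 0.028), with 8.73 to 9.59 in NG064 and 5.35 to 8.02 in NG087, and its adjusted p without both libraries was 0.064. It lost its call in 7 of those 12 fits.

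The other 9 of the 15 largest differences with NG064 higher ran from 1.20 to 2.15. AT2G07708 (2.15 ± 0.33) and AT2G07773 (1.73 ± 0.24) were read by probe sets that match several transcripts. AT1G18180 (1.80 ± 0.17), AT1G03210 (1.71 ± 0.23), AT2G01400 (1.37 ± 0.12), AT3G55170 (1.27 ± 0.11) and AT5G49900 (1.20 ± 0.21) made up most of the rest. AT1G23130 was one of the named genes with high values in both lines. They were 11.5 to 12.9 in NG064, against 9.27 to 11.2 in NG087, a difference of 1.73 ± 0.15. The largest difference of any probe set, 7.78 ± 0.39 with NG064 at a mean of 11.5 and NG087 at 3.70, belonged to one that the annotation table pairs with no single gene.

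Higher in NG087, the largest difference was at AT5G34920, whose values are given above. The difference was -5.09 ± 0.59 (adjusted p = 0.00378) and, without both libraries, -5.68 (adjusted p = 3.44e-05). Its probe set matches several transcripts. AT2G06490, the second pseudogene, read 2.11, 3.69 and 2.11 in NG064 at low nitrate, against 6.96, 6.23 and 6.78 in NG087. At sufficient nitrate it read 2.11, 2.11 and 3.29 in NG064, against 6.07, 6.09 and 6.43 in NG087. In the other 4 lines it averaged 2.11 to 2.19 in shoots, so NG087 was the only one of the 6 lines well above the floor. The difference was -3.86 ± 0.33 (adjusted p = 0.000556).

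AT2G01090 varied most among the NG064 arrays. They read 4.92, 7.72 and 2.55 at low nitrate, against 9.06, 9.05 and 9.18 in NG087. At sufficient nitrate they read 4.14, 5.38 and 3.29, against 10.4, 9.60 and 9.91. All NG087 arrays were higher, with NG064 low replicate 2 nearest to them. The difference was -4.87 ± 0.80 (adjusted p = 0.0191), it was -5.42 without both libraries (adjusted p = 0.00491), and the adjusted p was 0.0518 without NG087 sufficient replicate 3.

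AT5G56380 was the cleanest of this group, near the floor in every NG064 array. It read 2.11, 2.27 and 2.11 in NG064 at low nitrate and 2.11, 2.11 and 2.16 at sufficient nitrate. The NG087 arrays read 5.89, 6.41 and 5.94 at low nitrate and 5.34, 5.53 and 5.82 at sufficient nitrate. The difference was -3.68 ± 0.13 (adjusted p = 2.94e-06). AT5G59650 had the same shape, with 2.11 to 2.51 in NG064, against 4.65 to 5.96 in NG087 (-3.23 ± 0.20, adjusted p = 0.000136). AT5G26270 read 2.11 or 2.12 in all NG064 arrays and 3.66 to 5.73 in NG087 (-2.26 ± 0.27, adjusted p = 0.00415). AT5G63020 had 2.12 to 2.92 in NG064, against 3.80 to 6.37 in NG087 (-2.94 ± 0.42, adjusted p = 0.00935).

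Other genes higher in NG087 were expressed in both lines. AT5G24210 ranged over 7.19 to 9.21 in NG064 and 10.1 to 10.6 in NG087 (-2.39 ± 0.26). AT1G16260 ranged over 4.33 to 7.58 in NG064 and 8.28 to 9.14 in NG087 (-2.61 ± 0.35). The gene scpl26, a serine carboxypeptidase-like protein, ranged over 6.56 to 9.12 in NG064 and 9.49 to 10.4 in NG087 (-1.95 ± 0.28). Adjusted p-values of these 3 were 0.00269, 0.0076 and 0.00968. The same side was taken by AT2G31150 (-3.13 ± 0.26), AT5G52810 (-2.29 ± 0.26), AT2G36145 (-2.28 ± 0.17), AT1G11850 (-1.92 ± 0.33) and AT1G23120 (-1.91 ± 0.29). For AT1G23120 the gap between the lines was almost nil, with 7.05 as the highest NG064 and the lowest NG087 value.

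**Figure D2:**
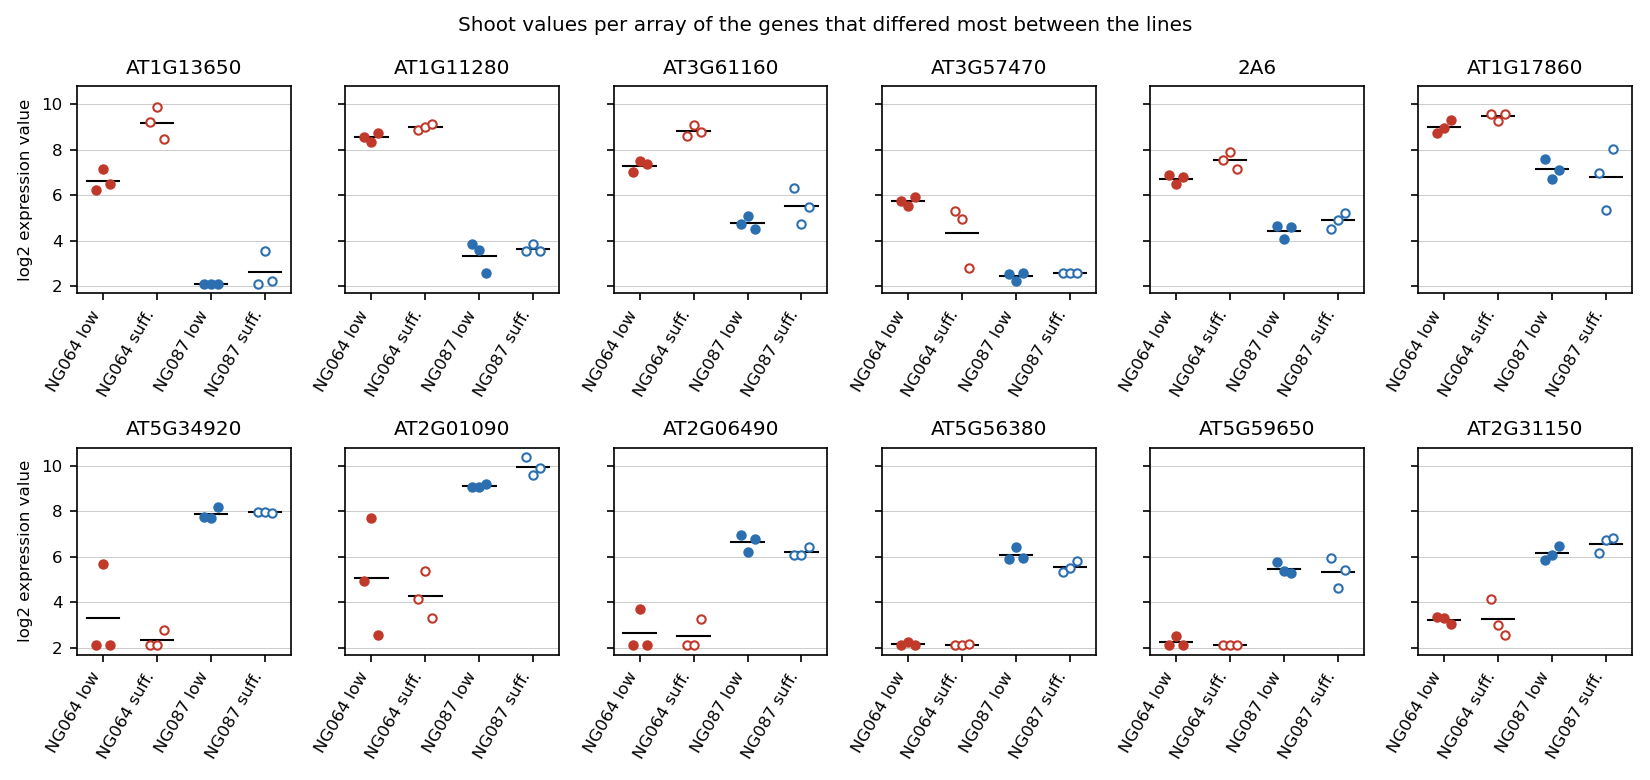
Log2 expression values per array (vertical axis) for the 6 largest differences with NG064 higher (upper row) and with NG087 higher (lower row). Points are single arrays, filled at low and open at sufficient nitrate, red for NG064 and blue for NG087, and each bar is the mean of 3 arrays. The lines do not overlap in any of these panels, and NG064 low replicate 2 is the highest NG064 point for AT5G34920 (5.70) and AT2G01090 (7.72).

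No probe set was above 6 in all 6 arrays of one line and below 3 in all 6 of the other. With the expressed line required to be above 5, 1 probe set without a gene name was on in NG064 and AT5G56380 was on in NG087. With the other line allowed up to 4, AT1G11280 and AT1G13650 were on in NG064 and AT2G06490 was on in NG087. Without NG064 low replicate 2 the strict count was 2, both on in NG087.

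Among the 88 genes of the firm set, 11 carry a name in the reference table, and they are described here because of that name, after their values were seen. In NG064 the cytokinin response regulator RR16, a type-A member that damps cytokinin signalling, was lower. It read 6.83, 6.20 and 5.78 in NG064 at low nitrate, against 8.40, 7.41 and 7.74 in NG087. At sufficient nitrate it read 5.10, 5.66 and 5.32, against 6.99, 7.39 and 6.78. Within each supply no NG064 array reached the NG087 arrays, and the difference was -1.63 ± 0.22 (adjusted p = 0.00826).

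A pair of genes for chloroplast proteins were slightly higher in NG064. TAPX, the thylakoid ascorbate peroxidase that removes hydrogen peroxide, had 8.88, 8.68 and 8.63 in NG064 at low nitrate, against 8.48, 8.17 and 8.16 in NG087. At sufficient nitrate it had 10.9, 10.8 and 10.7, against 10.3, 10.3 and 10.03. Its line difference of 0.52 ± 0.08 (adjusted p = 0.0139) was small beside its nitrate difference, which was -2.0 (low minus sufficient). LPA1, needed for photosystem II assembly, differed by 0.54 ± 0.08 (adjusted p = 0.0113).

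PMEPCRF, a pectin methylesterase of the cell wall, was lower in NG064. It had 8.82, 8.87 and 8.55 in NG064 at low nitrate, against 10.2, 9.98 and 10.1 in NG087. At sufficient nitrate it had 6.53, 6.24 and 6.60, against 8.29, 8.65 and 8.43. The difference of -1.67 ± 0.14 (adjusted p = 0.000533) held at each supply, and the gene was also higher at low nitrate in both lines, by 1.96. IQD30, of a calmodulin-binding protein family, was lower in NG064 by a difference of -1.03 ± 0.14 (adjusted p = 0.00812).

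The remaining named genes of the set differed by less than 2-fold, apart from scpl26 and 2A6 above. MED19A, a subunit of the Mediator complex that links transcription factors to RNA polymerase II, was higher in NG064 by 0.79 ± 0.09. NRPB7, a subunit of that polymerase, differed by -0.39 ± 0.04. TO1, a mitochondrial thioredoxin, differed by -0.55 ± 0.07, and PIP, a proline iminopeptidase, by -0.35 ± 0.05. The 4 adjusted p-values lay between 0.00238 and 0.00825.

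Gene lists of known leaf processes showed little among the genes that could be matched to them. Of 27 lists, matched by locus number or by patterns in gene symbols and synonyms, 24 had measured members, 297 genes in all. Such patterns can also take in genes of another role. Of the 297, 5 were called (1.68%), as in all genes (1.69%). The median difference over the list members was 0, the same as over all genes. The called ones were GTR2, a glucosinolate transporter (1 of 7 in its list), 3 of 24 cytochrome P450 genes and GSTU26 (1 of 14 glutathione transferases). No member was called among 50 UGT glycosyltransferases, 42 clock and flowering genes, 29 expansins and xyloglucan enzymes, 22 sugar and starch genes, 20 senescence genes, 17 nuclear photosynthesis genes and 17 auxin response genes. Lists of immune receptors, receptor kinases and F-box proteins held only 2, 3 and 1 measured members. Genes known by locus number alone were mostly not matched, so the lists do not show whether these families differed as a whole.

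GSTU26 had the largest of these differences. It read 7.18, 6.30 and 5.65 in NG064 at low nitrate, against 7.38, 7.08 and 7.76 in NG087, and 5.78, 5.15 and 4.98 at sufficient nitrate, against 8.04, 8.53 and 7.85. The lines overlapped over the 12 arrays through NG064 low replicate 1, and the difference was -1.93 ± 0.40 (adjusted p = 0.0434). GTR2 differed by -0.57 ± 0.10 (adjusted p = 0.0255). CYP71B35 differed by 1.05 ± 0.21, CYP78A9 by -0.89 ± 0.17 and CYP71B26 by 0.45 ± 0.08, with adjusted p-values of 0.0393, 0.0342 and 0.0333.

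None of these 5 was in the firm set. With 1 array left out, GTR2 lost its call in 7 of 12 fits, CYP71B26 in 8, CYP78A9 in 9, CYP71B35 in 10 and GSTU26 in 11. GTR2 and CYP71B26 were called without both libraries that stood apart, and GSTU26, CYP71B35 and CYP78A9 were not, with adjusted p-values of 0.089, 0.062 and 0.077. List members called only without both were LTI30, a dehydrin made in cold and drought (1.81 ± 0.28, adjusted p = 0.021), AGL19, a MADS-box gene that promotes flowering (1.404 ± 0.233, adjusted p = 0.026), and ATG8D, a protein of the autophagosome membrane (-0.56 ± 0.10, adjusted p = 0.0373). With all 12 arrays their adjusted p-values were 0.107, 0.274 and 0.215.

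No probe set called between the lines also had a line difference that was called different between the supplies, which the fit favours. Within low nitrate 146 probe sets were called (0.642%), 64 higher in NG064 (0.281%) and 82 higher in NG087 (0.361%). Within sufficient nitrate 95 were called (0.418%), 45 higher in NG064 (0.198%) and 50 higher in NG087 (0.22%). All 434 probe sets called over both supplies had the same sign at each, which the fit over both supplies favours. At low nitrate alone 99 of them were called, at sufficient nitrate alone 72, and at both 42. Nitrate itself changed 258 of the 434 (59.4%), beside 36.1% of all probe sets, of which 20.2% were higher at low and 15.9% at sufficient nitrate. A difference between the supplies in the size of the line difference was called for 7 probe sets (0.0308%), 1 with low minus sufficient greater in NG064 (0.0044%) and 6 with it greater in NG087 (0.0264%), and 861 had an unadjusted p below 0.05. None of the 7 was among the 434. The fit over both supplies counts an unequal line difference as residual spread, which works against a line call. This lack of overlap is therefore partly built in. Several leading genes had unequal gaps at the 2 supplies without a called interaction: the line difference of AT1G13650 was 4.53 at low and 6.56 at sufficient nitrate (interaction adjusted p = 1), and that of AT1G16260 was -1.73 at low and -3.48 at sufficient nitrate (adjusted p = 0.829).

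Among those 7, low values were common. AT3G53550 read 5.90, 5.50 and 6.15 in NG064 at sufficient nitrate and 2.11 in all 3 NG064 arrays at low nitrate and in all 6 NG087 arrays. The line difference, low minus sufficient, changed by -3.74 (limma adjusted p = 0.000382). In shoots of the other 4 lines AT3G53550 stayed near the floor too. Arrays at the floor show no spread between replicates, so p-values of interactions with groups there rest on an understated spread. AT1G35710 was the reverse in supply: at low nitrate it read 3.20, 3.36 and 3.17 in NG064, against 4.57, 4.83 and 4.74 in NG087, and all arrays at sufficient nitrate were at 2.11 or 2.12 (interaction -1.47, adjusted p = 0.00144).

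AT5G47440 rose above the floor only at sufficient nitrate. There it read 4.75, 4.50 and 4.61 in NG064, against 3.42, 3.33 and 3.64 in NG087 (interaction -1.15, adjusted p = 0.0192). This interaction was not called without both libraries that stood apart (adjusted p = 0.0828). The other 4 called interactions, AT1G66440, AT5G20940, AT1G62320 and a probe set with no gene name, were 0.55 or smaller in size. AT1G61670, eighth in order of p, was not called (-0.21, adjusted p = 0.059).

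NRT2.5, a high-affinity nitrate transporter that plants switch on when nitrate is scarce, was lower in NG064 at low nitrate. It read 8.36, 8.36 and 8.46 in NG064 at low nitrate, against 9.28, 8.98 and 9.21 in NG087. At sufficient nitrate both lines were low, 2.63 to 2.70 in NG064 and 2.57 to 2.70 in NG087. At low nitrate all NG064 arrays lay below all NG087 arrays, and the difference there was called (-0.77 ± 0.07, adjusted p = 0.0033). The interaction of -0.82 was not (adjusted p = 0.0736). ASPGB1, an asparaginase that releases ammonium from asparagine, read 7.31 to 8.71 in NG064 at low nitrate, against 6.24 to 8.76 in NG087, with no called difference.

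Roots are separate arrays that the shoot comparison did not use, and they gave the same direction for most large shoot differences. Of the 126 probe sets that differed 2-fold in shoots, 89 (70.6%) were also called in roots in the same direction, 1 in the opposite direction and 36 were not called. Roots had 2741 calls between the lines (12.1%), 1078 higher in NG064 (4.74%) and 1663 higher in NG087 (7.31%), and 299 at 2-fold or more (1.31%). Of all 434 shoot calls, 252 were called the same way in roots (58.1%) and 5 the other way. Leaving both libraries out in both organs, 85 of 152 probe sets at 2-fold or more were called the same way in roots (55.9%) with 1644 root calls (7.23%). With 1 library left out in both organs, the root calls were 2151 (9.46%) without NG064 low replicate 2 and 2443 (10.7%) without NG087 sufficient replicate 1.

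AT1G11280 differed by 4.34 ± 0.11 in roots, with 7.92 to 8.52 in NG064, against 3.84 to 4.26 in NG087. AT5G34920 differed by -4.78 ± 0.32 in roots, AT2G06490 by -4.14 ± 0.37 and AT2G01090 by -3.43 ± 0.51. For these 4 genes the difference between organs was not called (adjusted p of 0.0731 to 0.975). The same was so for scpl26 (-2.19 ± 0.24) and PMEPCRF (-1.93 ± 0.41). The 2 probe sets of 2A6 disagreed: one differed by 2.47 in shoots and 1.99 in roots, and the other by 2.06 in shoots and 0.01 in roots, with a called organ difference of 2.05 (adjusted p = 0.00545).

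**Figure D3:**
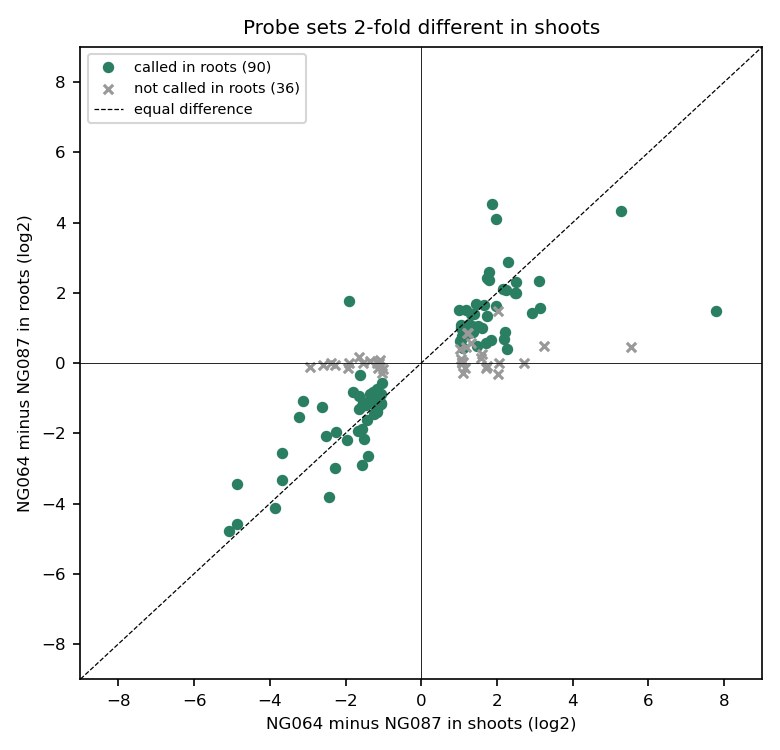
Line difference in roots (vertical axis, NG064 minus NG087, log2) against that in shoots (horizontal axis) for the 126 probe sets called at 2-fold or more in shoots. Green points (90) were called in roots, grey crosses (36) were not, and the dashed line marks equal differences; 1 called point lies on the opposite side.

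A test of the difference itself, shoot minus root, called 267 probe sets (1.17%). NG064 minus NG087 was greater in shoots at 114 (0.501%) and greater in roots at 153 (0.673%). Greater is meant by sign, so a gene lower in NG064 shoots and equal between the lines in roots counts as greater in roots. AT1G13650 was the largest among genes called in shoots, 5.08 apart (adjusted p = 1.53e-06). In roots it ranged over 2.11 to 3.95 in NG064 and was 2.11 in all NG087 arrays. AT5G24210 read between 2.24 and 2.27 in all 12 root arrays of both lines, and no line difference was read there (organ difference -2.39, adjusted p = 2.38e-05).

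AT1G16260 ranged over 3.43 to 3.46 in NG064 roots and 3.42 to 3.77 in NG087 roots (organ difference -2.56). AT2G36145 had a similar pattern, 2.11 to 2.63 in roots of both lines (-2.23), and so did AT5G63020 (-2.83) and AT1G11850 (-1.91). These are genes whose line difference was read in shoots, where the transcript was above the floor in at least one line.

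A pair of neighbours on chromosome 1 showed opposite signs. AT1G23130 was higher in NG064 shoots and read 2.30 to 2.52 in NG064 roots and 2.30 to 2.74 in NG087 roots. AT1G23120, beside it, read 6.63, 7.05 and 5.68 in NG064 shoots at low nitrate, against 7.70, 7.94 and 8.08 in NG087. In roots the order turned: 8.50 to 9.57 in NG064, against 6.78 to 7.69 in NG087 (1.77 ± 0.13, adjusted p = 0.000118). Its organ difference of -3.68 (adjusted p = 1.53e-06) was the largest of the genes lower in NG064 shoots.

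Other called organ differences were smaller or turned on the root side. AT3G56080 differed by 1.88 ± 0.35 in shoots and by 4.52 ± 0.22 in roots (organ difference -2.64), and its shoot difference was not called without both libraries (adjusted p = 0.0843) nor in 9 of the 12 fits with 1 array left out. AT3G62860 differed by 2.02 ± 0.29 in shoots and -0.31 in roots (organ difference 2.33), but the organ difference was not called without both libraries (adjusted p = 0.0511). RR16 differed by 0.18 ± 0.21 in roots, against -1.63 in shoots (organ difference -1.82, adjusted p = 0.00611). PIP was higher in NG064 roots by 0.32 ± 0.09 and lower in NG064 shoots (organ difference -0.66, adjusted p = 0.000572).

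Genes that differed in shoots lay together along the chromosomes. Of 13217 measured genes placed on the 5 chromosomes in the order of the reference table, 36.9% of the 225 called genes had another called gene within 5 measured neighbours on either side, beside 14.1% of all genes. In windows of 50 consecutive measured genes, 30 of 267 windows held 3 or more called genes. These had 11.3% of the genes and 50.7% of the called ones, and 150 windows had none. The 30 windows were picked by their calls, so their share of called genes had to exceed their share of genes. Of 19 pairs of called genes next to each other, 14 differed in the same direction.

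The highest share, 14%, was in a window on chromosome 1 from AT1G11710 to AT1G12560, with 7 called genes, 2 higher in NG064 and 5 higher in NG087. It includes AT1G11850 and AT1G11880, which read 2.40 to 2.69 in NG064 and 3.56 to 4.84 in NG087 (-1.56 ± 0.15). AT1G12230, the third by size, went the other way (0.81 ± 0.15), and lost its call in 11 of the 12 fits with 1 array left out. AT1G11850 lost its call in 7 of them. A window from AT1G17910 to AT1G19000 had 12%, with AT1G18180, AT1G18910 (-1.62 ± 0.29) and IQD30. A window on chromosome 5 from AT5G49900 to AT5G51010 also had 12%, with 5 of 6 higher in NG064, among them AT5G49900, AT5G50410 (1.05 ± 0.17) and AT5G50110 (0.97 ± 0.12). With 1 array left out, AT1G18910 lost its call in 9 of 12 fits and AT5G49900 in 8.

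On a larger scale, with each chromosome cut into 4 blocks of equal gene number, the first block of chromosome 1 held 49 called genes of 852 (5.75%). The last block had 3.89% on chromosome 5 and 2.94% on chromosome 3, and the first block of chromosome 2 had 2.95%. In contrast, a run of 466 measured genes on chromosome 1, from AT1G68160 to AT1G77480, had no call. The longest such runs were 356 genes on chromosome 2, 409 on chromosome 3, 401 on chromosome 4 and 336 on chromosome 5.

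Root differences were more frequent in the same stretches. Genes called at 2-fold or more in roots made up 4.07% of the genes in windows with 3 or more shoot calls, 0.485% in windows with none, and 1.18% of all genes. The windows were picked by shoot calls, and genes called in both organs were not removed, which raises the first of these shares. Over 262 full windows the shares in the 2 organs had a Spearman correlation of 0.489, given as a description, since the windows share lines and genes.

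**Figure D4:**
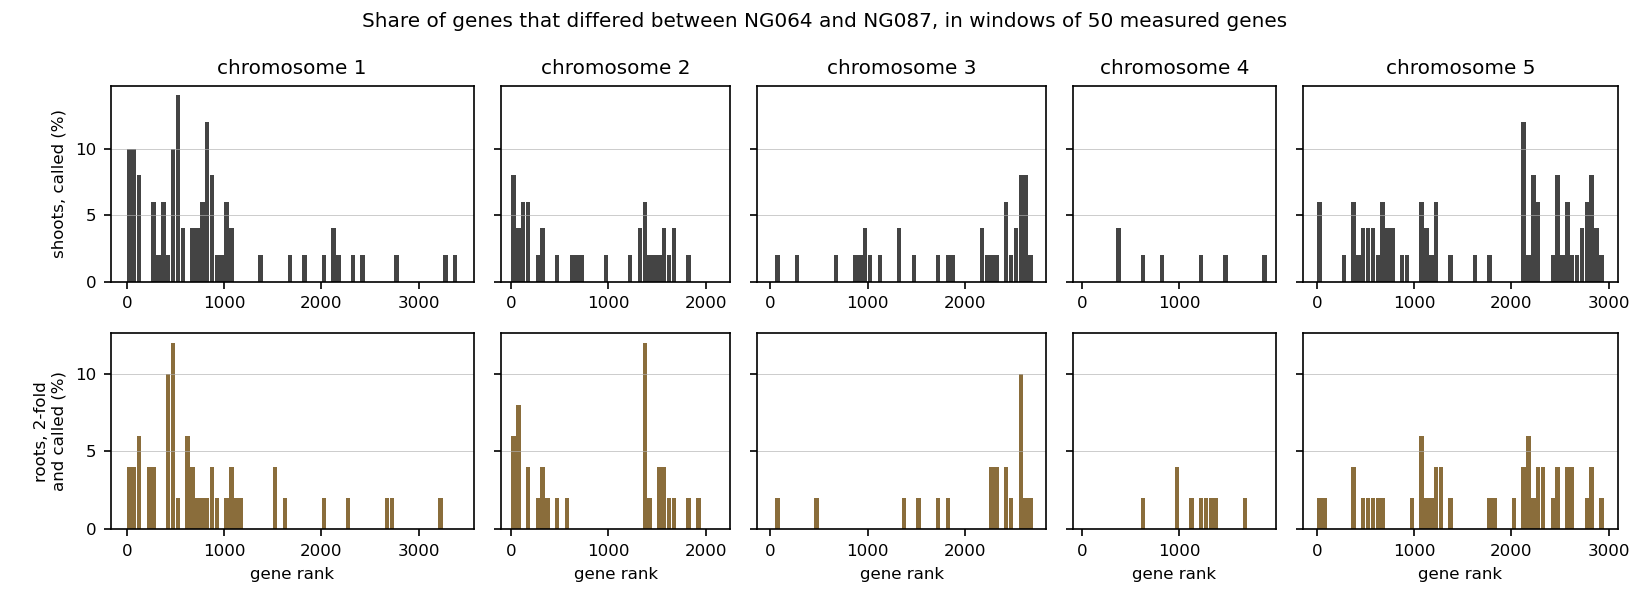
Percent of genes that differed between NG064 and NG087 (vertical axes) in windows of 50 measured genes, placed by gene rank along each chromosome (horizontal axes). The upper row gives shoot calls and the lower row root calls of 2-fold or more; both are dense early on chromosome 1, where the shoot maximum is 14%, and sparse on chromosome 4.

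Chromosome 4 had few differences: 7 of 1935 genes (0.362%), none of them 2-fold, beside 2.11% on chromosome 1, 1.66% on chromosome 2, 1.29% on chromosome 3 and 2.52% on chromosome 5. The largest of the 7 was AT4G08850, -0.79 ± 0.14. The share on chromosome 4 over the share on all 5 was 0.214 for the sisters, against 0.932 to 1.12 in the other 14 pairs of lines. This ratio depended on the libraries used: it was 0.0767 without NG064 low replicate 2, 0.567 without NG087 sufficient replicate 1 and 0.542 without both. Without both, 25 genes of chromosome 4 were called (1.29%), 4 at 2-fold or more, still the lowest share of the 5 chromosomes. In roots chromosome 4 also had the lowest share of genes at 2-fold or more, 0.465%, with 0.772% to 1.51% on the others.

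**Figure D5:**
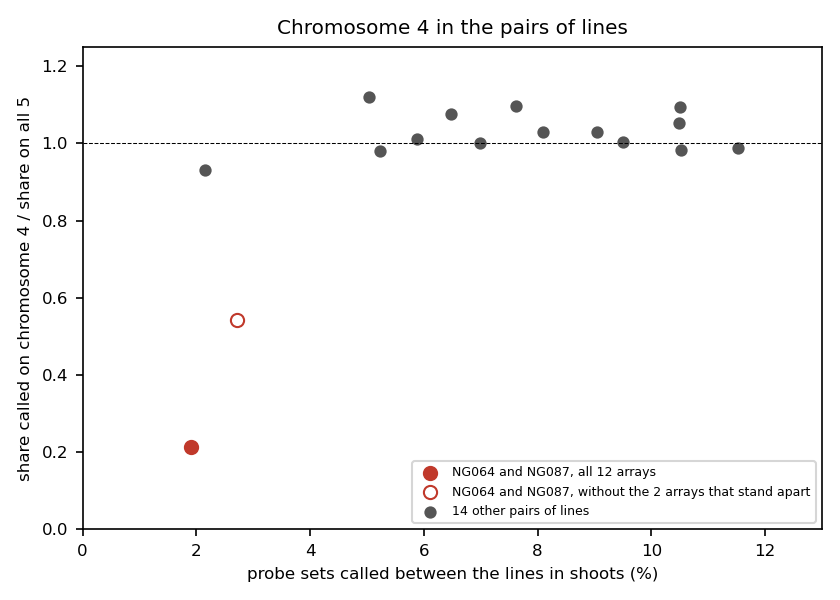
Share of called genes on chromosome 4 divided by that on all 5 chromosomes (vertical axis) against the percent of probe sets called in shoots (horizontal axis), for each pair of lines. The sisters lie at 0.214 with all 12 arrays (filled red) and 0.542 without the 2 arrays that stood apart (open red), and the 14 other pairs (grey) lie between 0.932 and 1.12.

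The other 4 lines were not tested against the sisters here, but their shoot means place each large difference. Of the 126 probe sets at 2-fold or more, all 4 other lines were nearer to NG064 at 32 and nearer to NG087 at 24. At the other 70 the 4 lines were divided. AT2G31150, at 2.57 to 4.15 in NG064 and 5.88 to 6.85 in NG087, averaged 5.53 to 6.01 in the 4 other lines, so NG064 was the low one there. AT2G36145 likewise averaged 8.78 to 9.52 in the others, with 5.57 to 7.66 in NG064 and 8.04 to 10.3 in NG087.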

How the data were processed

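Values are the log2 expression values of the series matrix as the authors deposited them; affy, GCRMA and limma are named in the submitters' processing notes, whose versions are not given in the sources used here. No further normalization was applied. Probes follow a reference genome, so unequal hybridization of the lines' alleles cannot be told apart from unequal transcript level. Of 22746 probe sets, 13513 were paired with 1 gene in GEO's platform annotation, and 13436 of those matched the reference gene table; the probe set with the highest mean stood for a gene. The number of arrays limits precision. NG064 minus NG087 was fitted with limma 3.58.1 in R 4.3.3 (lmFit, eBayes, nitrate supply as covariate, residual df 9) with Benjamini-Hochberg adjustment over all probe sets and called at an adjusted p below 0.05. A group-means fit gave the nitrate interaction, and a fit of 8 groups the organ difference. The fit was run on simulated data with normal noise and known changes in probe sets well above the floor. That run had no floor and no library that stood apart, so it does not cover either. Named genes are the 15 largest non-overlapping called differences per direction, up to 3 called members per list and direction, the 8 smallest interaction p-values, the 4 largest organ differences per direction, on/off genes, 3 genes in each of the top 3 windows, and nitrogen genes. Members and lists were chosen with earlier results of these data known. Same-numbered replicates were not treated as pairs: the deviations of 18 same-number pairs correlated at -0.04 to 0.41, 12 of them over 0.1. Replicates are biological per the labels, with nothing said of separate experiments.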

Additional observations from a re-analysis of the deposited data

Results flagged for a closer look

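Among genes named by the rule, 24 had a line difference in shoots that was called different from that in roots by limma's test of the difference itself, which called 267 probe sets in all. RR16 (-1.82) and PIP (-0.66) were also called but stand outside the rule. Where the difference NG064 minus NG087 was greater in shoots, the shoot value exceeded the root value by 5.08 for AT1G13650, 2.33 for AT3G62860, 1.87 for AT1G17860, 1.87 for AT3G53550, 1.81 for AT1G23130, 1.48 for AT3G61160, 1.15 for AT1G03210 and 0.58 for AT5G47440. The organ differences of AT1G17860 and AT3G62860 were not called without both libraries that stood apart.

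Greater is meant by sign, not by size. AT5G63020, for one, differed by -2.94 in shoots and -0.11 in roots, and AT3G56080 by 1.88 in shoots and 4.52 in roots. Where NG064 minus NG087 was greater in roots, shoots minus roots was -3.68 for AT1G23120, -2.83 for AT5G63020, -2.64 for AT3G56080 and -2.56 for AT1G16260. It was -2.39 for AT5G24210, -2.23 for AT2G36145, -2.04 for AT2G31150 and -1.91 for AT1G11850. It was -1.78 for GSTU26, -1.69 for AT5G59650, -1.27 for AT1G18910, -1.11 for AT5G56380, -0.75 for IQD30, -0.74 for AT1G35710, -0.65 for AT1G66440 and -0.0612 for AT5G20940. Without both libraries GSTU26, AT5G59650, IQD30 and AT1G66440 were not called.

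For 6 named genes the line difference was called different between nitrate supplies. The difference at low minus that at sufficient nitrate was -3.74 for AT3G53550, -1.47 for AT1G35710, -1.15 for AT5G47440, -0.55 for AT1G66440, -0.12 for AT5G20940 and -0.0852 for AT1G62320. In shoots of both lines AT1G66440 read 2.21 to 2.92, AT5G20940 2.11 to 2.25 and AT1G62320 2.11 to 2.20. These values were at or near the floor of 2.11, where the spread between replicates is understated. With probe sets kept only if above 5 in 3 or more arrays, 1 interaction was called. The interaction of AT5G47440 was not called without both libraries (adjusted p = 0.0828).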

How the results depend on the processing

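The count of 434 line differences in shoots stayed within 1.5 times of itself with arrays centred on their median (490) and quantile normalization (423). The same held with 34 shoot arrays (460), trend and robust settings (413), a group-means model (450) and a filter on low values (621). With the filter only 13433 probe sets were tested, so the share called rose to 4.62%, beside 1.91% in the main fit. The count was 211 with all 36 shoot arrays and 116 at an adjusted p below 0.01. Leaving out 1 array gave 214 to 932. No named gene reversed. Of the 43 called ones none was lost under centring, quantile normalization or trend and robust settings, 3 with 34 arrays, 10 with 36 arrays, 6 without both libraries and 1 to 12 leaving out 1 array. The 7 nitrate interactions became 3 with centring, 1 with the filter and 26 without both libraries that stood apart, an alternative chosen after seeing the data, with 6 to 29 leaving out 1 array. The count at low nitrate, 146, was 81 from those 6 arrays alone and 78 to 231 leaving out 1 array; at sufficient nitrate, 95, it was 22 alone and 59 to 183 leaving out 1. Roots ranged over 1947 to 2631 and on/off probe sets over 0 to 2 leaving out 1 array; on/off counts were 2 and 3 with the looser bounds. The highest window held 20% with 25 genes and 10% with 100. With replicate number as a block, the line difference had 386 calls, the interaction 6 and roots 2348, and AT3G57470, CYP71B35, CYP71B26, GSTU26, AT1G12230 and AT1G18910 were no longer called. The organ difference was called for 268 with centring and 274 without the libraries.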

Other observations

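The probe set with the largest difference, which carries no gene name here, was higher in NG064 shoots by 7.78 and in NG064 roots by 1.49 (limma adjusted p = 0.000521 in roots). Another unnamed probe set that was on in NG064 averaged 5.82 in NG064 shoots and 2.70 in NG087 shoots, with a root difference of 1.56. The root marker JAL22, not called in shoots, differed by 0.59 in roots.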
